A study of Bos taurus with 48 samples.

Results

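The 94 genes described here stood higher in the mammary parenchyma of calves given unlimited milk replacer than in that of calves on either other diet. They were chosen by measured values, from 27607 genes in the deposited counts. Levels are in CPM, a gene's read count per 1 M (mega, by the metric prefix) counts assigned to genes in its library. A gene was taken when its lowest unlimited parenchyma library exceeded the highest of the 9 restricted and control parenchyma libraries, its unlimited mean was at least 2 CPM and at least 1.5 times the restricted mean, and its restricted parenchyma mean was under 4 times the restricted fat pad mean plus 0.1 CPM. A limit of 300 genes was not reached. Of 12620 genes with an unlimited mean of 2 CPM or more, 116 had every unlimited library above all the others, a share of 0.919%. In the opposite direction, 380 of 12893 genes with a mean of 2 CPM or more in the other libraries had every unlimited library below them. Of the 116 higher genes the ratio left 99, the fat pad condition left 96, and 2 identifiers were left out by the rule.

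RNA was sequenced from liver, mammary parenchyma and mammary fat pad of dairy calves (Bos taurus) on 3 diets. Control calves had standard nutrition set by published requirements for dairy cattle, restricted calves had a limited daily ration of milk replacer, a liquid feed given in place of milk, and unlimited calves drank it freely in 3 meals of 30 min a day. Restricted and unlimited diets had 6 libraries each in every tissue, and the control diet had 3 in parenchyma, 4 in fat pad and 4 in liver. Breed, age and sex of the calves were not stated in the labels, nor whether tissue pieces were pooled.

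Parenchyma is the part of the gland that carries the branching epithelial ducts, together with the connective tissue around them. In a young calf it is small and grows into the fat pad, a bed of adipose tissue that supplies it with space, blood vessels and local signals. Feeding level before weaning is known to affect how fast it grows. The deposited tables give Ensembl identifiers without names, and the RefSeq gene table at hand shared no identifier with them, so the genes below carry no name or role and the tissues could not be checked against marker genes by name. No sequence is shown for the same reason.

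Depth was 5.59 to 24.2 M counts assigned to genes per library, with a median of 13.8 M. Restricted parenchyma had 9.70 to 17.2 M and unlimited parenchyma 10.6 to 18.4 M. A position was computed for each mammary library on a line from the mean expression of the restricted and unlimited parenchyma libraries (0) to that of the fat pad libraries (1). Restricted and unlimited fat pad lay at 0.805 to 1.11. The 4 fat pad control libraries lay elsewhere, with numbers 1, 2, 21 and 18 at -0.0329, 0.0306, 0.127 and 0.569, and the titles of numbers 1 and 2 carry the abbreviation PAR. Diets were therefore compared in fat pad between unlimited and restricted only, and the fat pad controls are given as single values. These are bulk samples, in which fewer cells of a type and less RNA per cell cannot be told apart.

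The median of the 94 genes within a library was 47.4 to 60.9 CPM in unlimited parenchyma, with a mean of 54.9 ± 5.19 (SD, n = 6). It was 20.7 to 35.0 CPM in restricted parenchyma (25.8 ± 4.87, n = 6) and 20.4 to 28.8 CPM in the controls (25.2 ± 4.30, n = 3). All 6 unlimited libraries lay above the 9 others, as the choice of genes required. In fat pad the median was 26.2 ± 2.20 CPM on the restricted and 28.2 ± 5.32 CPM on the unlimited diet (n = 6 each). In liver it was 25.4 ± 2.13 CPM in controls (n = 4), 29.3 ± 2.84 CPM on the restricted and 26.9 ± 3.42 CPM on the unlimited diet (n = 6 each). The group means of this median outside unlimited parenchyma thus lay between 22.2 CPM (fat pad controls) and 29.3 CPM (restricted liver).

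**Figure D1:**
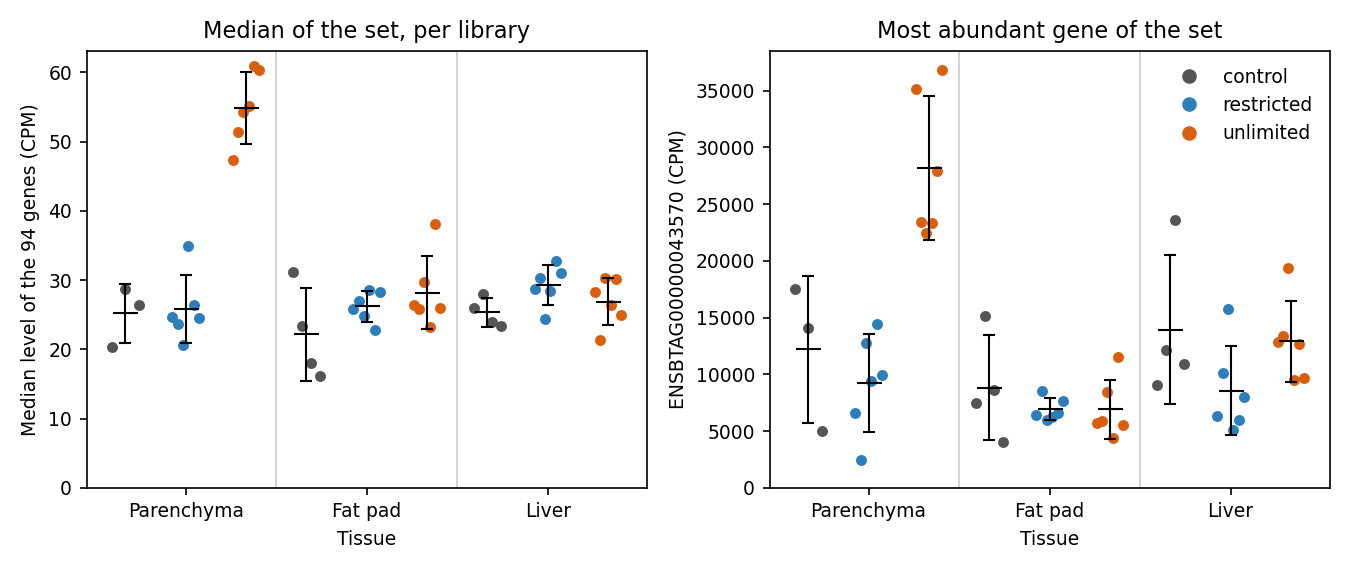
Levels per library by tissue (x axis), with the median of the 94 genes (CPM, left) and the most abundant gene (CPM, right). Each point is a library coloured by diet and bars are mean ± SD. The unlimited parenchyma medians, 47.4 to 60.9 CPM, lie above all other libraries, while diets overlap in liver and fat pad.

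Abundance spanned a wide range. In unlimited parenchyma 10 genes had means under 10 CPM, 51 lay from 10 to under 100, 25 from there to under 1000, and 8 at 1000 CPM or more, with a median of 55.6 CPM. Those 8 genes made up 88.4% of the summed level of the set. ENSBTAG00000043570 alone made up 50.2%, and it is named because of its level, after its values were seen. Its unlimited parenchyma libraries had 22440, 25688 and 36793 CPM as lowest, median and highest, against 2439, 9653 and 14399 CPM in the restricted libraries. The 3 controls had 5029, 14055 and 17498 CPM. No unlimited library fell to the level of any other parenchyma library. In fat pad it was at 6924 ± 986 CPM (restricted) and 6907 ± 2618 CPM (unlimited, SD, n = 6 each). In liver it was at 8546 ± 3934 and 12911 ± 3589 CPM on these diets (n = 6 each), and in those tissues the diets overlapped. Control liver was at 13919 ± 6561 CPM (n = 4). Its library 18 had 23584 CPM, above the lowest unlimited parenchyma library.

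Ratios of the unlimited to the restricted parenchyma mean ran from 1.51 to 12.96, with a median of 2.07. They lay under 2 in 42 genes, from 2 to 4 in 40, from 4 to 8 in 7 and at 8 or more in 5. The ratio to the control mean, for which the rule set no size, had a median of 1.95 and ran from 1.28 to 18.8, and 40 genes were at least 2 times both other means. The genes nearest the ratio limit had 1.51 inside and 1.499 outside. The lowest unlimited library was 1.002 times the highest other library in the member nearest that limit, and 0.997 times in the nearest gene outside. There were 39 members within 10% above this limit and 47 genes within 10% below it, and 585 genes met the ratio but overlapped.

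**Figure D2:**
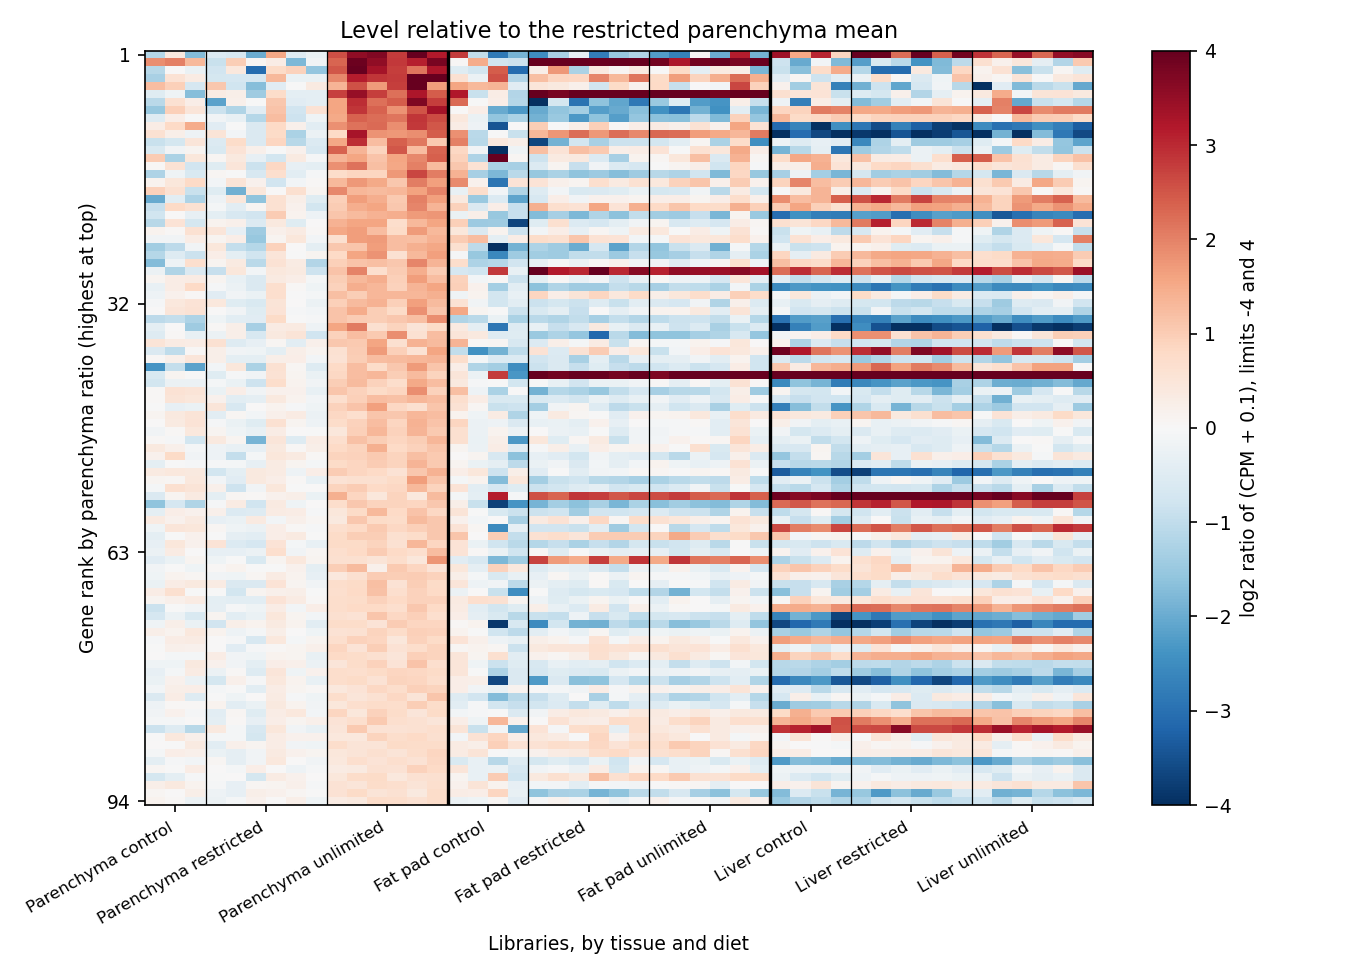
Level of each of the 94 genes (y axis, ranked by parenchyma ratio) in each library (x axis, grouped by tissue and diet), as the log2 ratio of CPM + 0.1 to the restricted parenchyma mean, with the colour scale capped at both ends. The unlimited parenchyma columns are the block the genes were chosen on. In fat pad and liver many genes keep a similar colour across diets, above or below the restricted parenchyma mean.

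The gene of the highest ratio, ENSBTAG00000009570, had 60.4, 104 and 307 CPM as lowest, median and highest in unlimited parenchyma. The restricted libraries had 2.48, 6.89 and 29.2 CPM, the highest being number 10, and the controls 2.96, 4.47 and 13.3 CPM. All unlimited libraries were at least 60.4 CPM, and no other parenchyma library passed 29.2 CPM. In restricted and unlimited liver the same gene was near its unlimited parenchyma level. It had 126 ± 60.6 CPM on the restricted and 87.9 ± 33.9 CPM on the unlimited diet (SD, n = 6 each). Control liver libraries 1, 2, 18 and 21 had 106, 29.4, 83.9 and 18.0 CPM. In fat pad 5 of the 6 unlimited libraries had 1.44 to 10.7 CPM, and number 11 had 88.8 CPM. The ratio of the fat pad means was 4.75 with that library and 1.02 without it.

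ENSBTAG00000007415 had the second highest ratio, with 12.2, 24.7 and 36.8 CPM in unlimited parenchyma and 0.598, 2.28 and 4.71 CPM in the restricted libraries as lowest, median and highest. Its controls, at 5.85, 8.65 and 9.60 CPM, all lay above every restricted library and below every unlimited library. Its mean was higher in restricted and unlimited fat pad than in any parenchyma group, at 46.5 ± 11.5 and 34.3 ± 6.60 CPM (n = 6 each). Fat pad controls 1, 2, 18 and 21 had 2.39, 6.75, 1.31 and 1.24 CPM. Liver was low, at 0.837 ± 0.440 CPM on the restricted and 2.87 ± 1.40 CPM on the unlimited diet. ENSBTAG00000000793 had a similar order of tissues, with 11.4, 16.7 and 27.8 CPM in unlimited parenchyma, 0.825, 2.33 and 4.06 CPM in restricted, and 0.673, 1.69 and 2.10 CPM in controls. Fat pad held 58.0 ± 21.0 CPM of it on the restricted and 56.1 ± 15.3 CPM on the unlimited diet. Fat pad controls 1, 2, 18 and 21 had 23.0, 1.24, 2.96 and 0.994 CPM of it. For both genes the unlimited parenchyma mean lay between the means of the other parenchyma groups and those of restricted and unlimited fat pad.

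ENSBTAG00000017665 had 112, 131 and 149 CPM in unlimited parenchyma against 59.7, 70.6 and 84.5 CPM in restricted and 62.1, 97.4 and 99.7 CPM in control libraries. Its level was highest in liver, at 350 ± 43.5 CPM (restricted) and 422 ± 97.3 CPM (unlimited, n = 6 each). In this gene the 2 lower parenchyma groups overlapped and the unlimited group stood clear of them.

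ENSBTAG00000004079 and ENSBTAG00000025496 had group means in the order control, restricted, unlimited in parenchyma. ENSBTAG00000004079 had 189, 212 and 227 CPM in the controls, 321, 409 and 745 CPM as lowest, median and highest on the restricted diet, and 871, 955 and 1614 CPM on the unlimited diet. ENSBTAG00000025496 had 12.4, 16.3 and 23.8 CPM in the controls, 22.1, 38.0 and 48.6 CPM on the restricted diet and 61.5, 70.8 and 80.3 CPM on the unlimited diet. The first had no overlap between any pair of diets, and the second overlapped only between control and restricted. In fat pad ENSBTAG00000004079 was at 177 to 228 and 201 to 364 CPM and ENSBTAG00000025496 at 10.3 to 15.7 and 11.3 to 16.6 CPM on the restricted and unlimited diets.

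**Figure D3:**
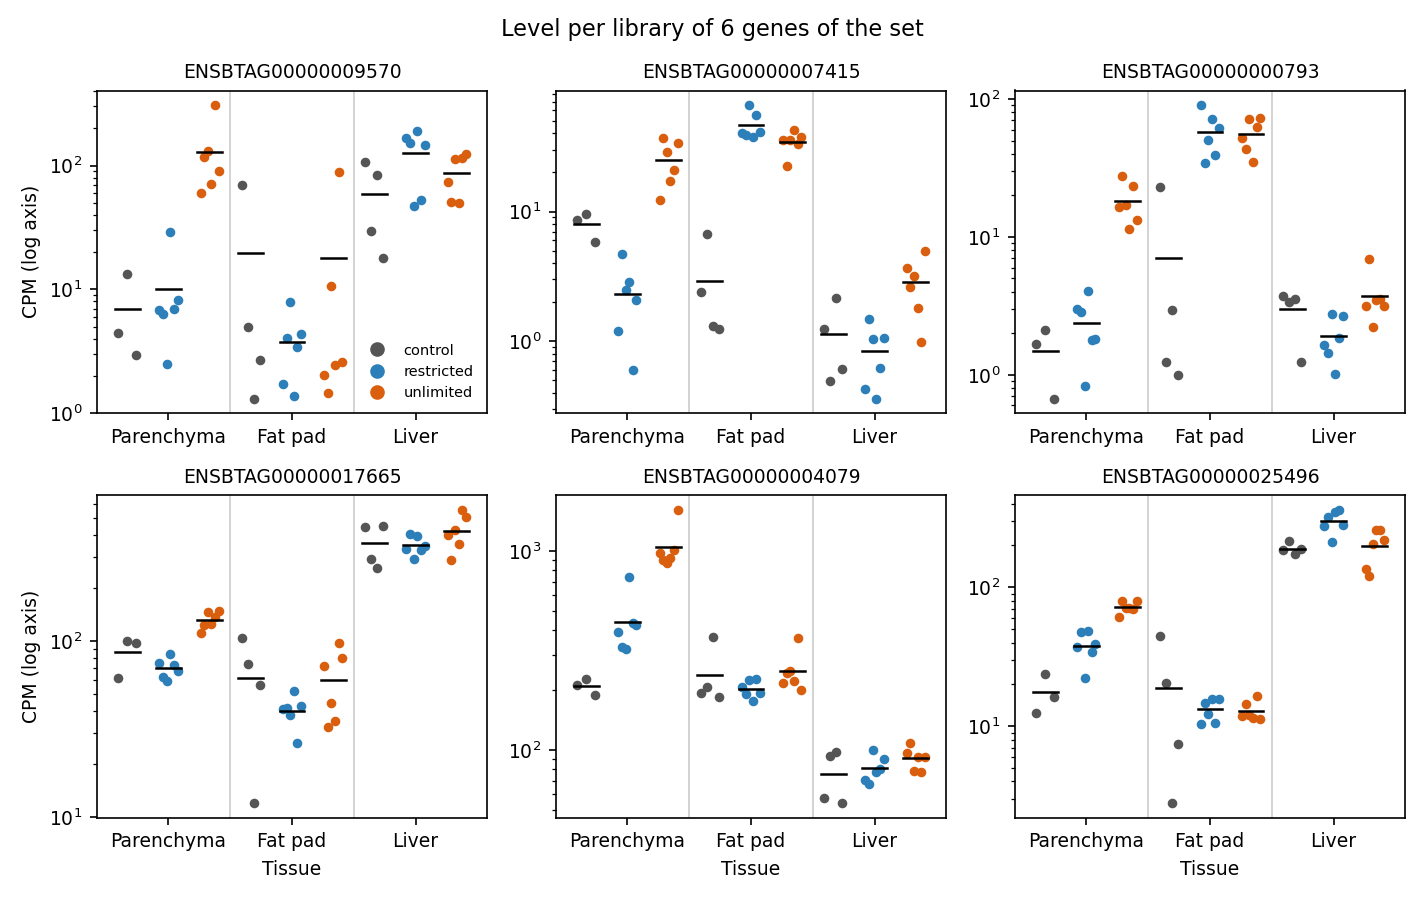
CPM (log axis) of 6 genes of the set in each library, by tissue (x axis) and diet (colour), with black lines at the group means. ENSBTAG00000007415 and ENSBTAG00000000793 are highest in restricted and unlimited fat pad, ENSBTAG00000017665 and ENSBTAG00000025496 in liver, and single libraries stand apart in ENSBTAG00000009570, such as unlimited fat pad 11 at 88.8 CPM.

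The edgeR quasi-likelihood test called 94 of the 94 genes higher in unlimited than restricted parenchyma at a Benjamini-Hochberg adjusted p under 0.05, where 7.86% of 14117 tested genes were called higher. Against control it called 92 of 94, where 7.42% of 15119 were called higher. The rule used these contrasts, so nothing is read from either count. Log2 fold changes of the 94 genes had a median of 1.19 (0.73 to 3.83) against restricted and 1.16 (0.56 to 4.42) against control, beside -0.02 and -0.01 over all tested genes. The pair of contrasts shares the unlimited libraries. The 2 genes not called against control, singled out after their values were seen, were ENSBTAG00000006050, whose unlimited libraries start at 5.48 CPM against a highest control of 5.47 CPM, and ENSBTAG00000012489, with unlimited libraries from 5.01 to 53.0 CPM and a highest control of 4.62 CPM.

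Between restricted and control parenchyma the 94 genes had no common direction. By plain CPM the restricted mean was above the control mean in 41 of 94 genes, 43.6%. It was so in 5052 of the 12620 genes with an unlimited mean of 2 CPM or more. In edgeR, which rescales libraries by the bulk of genes, 51 of 94 log2 fold changes were above 0, 54.3% beside 50.7% of all tested genes. No member was called by edgeR, where 0.329% of 14881 tested genes were called, and 10 members had an unadjusted p under 0.05 (8 higher, 2 lower on the restricted diet), 10.6% beside 14.5% of all genes. DESeq2 called 5 members, 2.84% of 22085 genes being called. These libraries were used by the rule, which held both groups below the unlimited one, so the counts are a description. Of the genes of lowest p, ENSBTAG00000025496 and ENSBTAG00000004079 stood higher on the restricted diet (log2 fold changes 1.18 and 1.15) and ENSBTAG00000007415 and ENSBTAG00000005681 lower (-1.70 and -0.86). ENSBTAG00000005681 had 35.0, 50.1 and 79.8 CPM in the controls and 19.1, 24.6 and 49.7 CPM as lowest, median and highest on the restricted diet, which overlap, and 102 to 203 CPM on the unlimited diet.

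The unlimited libraries did not carry the set evenly. The coefficient of variation between them had a median of 18.4% over the 94 genes, and it was 50% or more in 8. The 12 genes of a ratio of 4 or more had a median of 52.7%, and the 82 others 17.2%. Ratio and spread were taken from the same libraries. The rule also allowed no overlap, which leaves less room for spread at a low ratio. A difference between these classes was therefore built in, and nothing is read from it. In those 12 genes unlimited library 3 was lowest in 9, at a median of 50.3% of the unlimited mean, and libraries 6 and 11 were highest in 5 each. Over all 94 genes library 3 was lowest in 43 (45.7%, beside 27.0% of all genes of 2 CPM or more) and library 11 highest in 35 (37.2%, beside 14.0%).

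Among the lower diets, restricted library 10 stood nearest to the unlimited group. It was the highest restricted library in 59 of the 89 members with a restricted mean of 2 CPM or more (66.3%, beside 16.2% of 12905 genes), and the highest of all 9 other libraries in 45 of 94. The number of genes that met the rule was 94 with all libraries, 169 without restricted 10 and 185 without unlimited 3. It was 307 without both, a setting chosen after seeing the data, and in all 3 settings the 94 were among them. Without any other parenchyma library it was 91 to 116. Of the single libraries left out, these 2 changed the size of the set most.

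Position between the tissues moved with diet in parenchyma. Unlimited libraries lay at -0.0444 to -0.00821 with a mean of -0.0265 ± 0.0117, and restricted libraries at -0.0232 to 0.0919 with a mean of 0.0462 ± 0.0380 (SD, n = 6 each). Controls lay at 0.00247 to 0.0678 (0.0307 ± 0.0336, n = 3). Restricted library 10 was the lowest of its group in position, within the unlimited range, and had the highest median of the 94 genes among the 9 libraries of the lower diets, 35.0 CPM. With position as a covariate, a setting added after seeing the data, edgeR called 0 of 94 genes against restricted (59 at an unadjusted p under 0.05) and 0 of 94 against control (54), with median log2 fold changes of 0.71 and 0.82. Over all genes it then called 4 against restricted (0.0283%) and 0 against control. Position was computed from the same libraries and differs between the diets, so that the covariate and the diet cannot be told apart here.

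**Figure D4:**
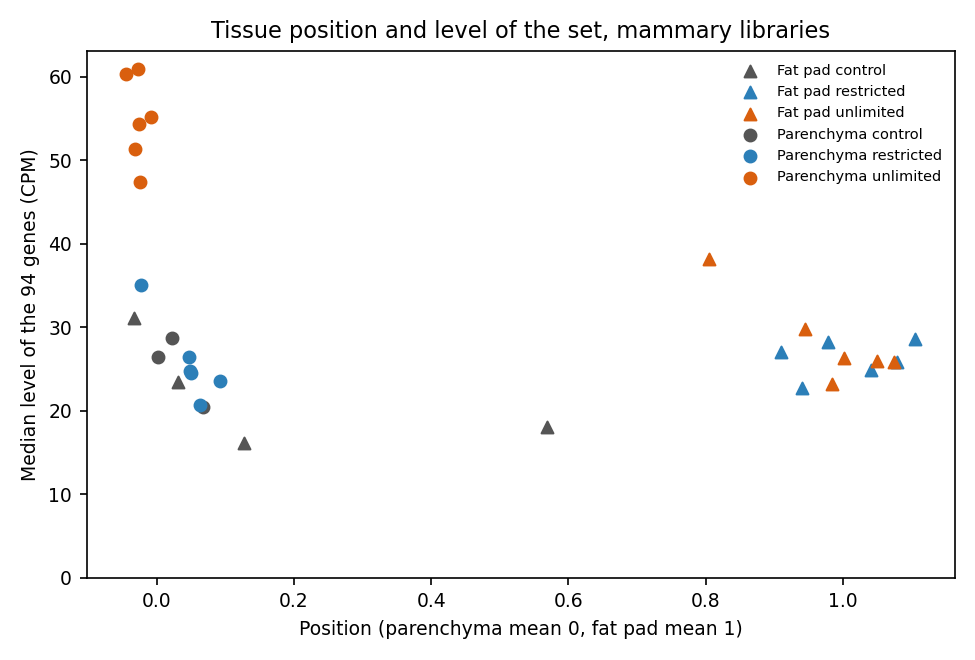
Median level of the 94 genes (CPM, y axis) against position between the mean of parenchyma (0) and fat pad (1) (x axis) for each mammary library, with circles for parenchyma, triangles for fat pad and colour for diet. Unlimited parenchyma sits at the left end between 47.4 and 60.9 CPM, restricted 10 is the highest of the other parenchyma points at 35.0 CPM, and the fat pad controls lie between -0.0329 and 0.569.

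The share of uniquely placed reads assigned to genes was 39.2 ± 4.86% in unlimited, 34.0 ± 7.76% in restricted (n = 6 each) and 37.4 ± 7.89% in control parenchyma (n = 3). With this share as a covariate 90 of 94 genes were called higher against restricted, where 3.75% of all tested genes were, and 92 against control, where 7.67% were. Nothing is read from these counts, since the rule used both contrasts. Scaling mattered to the size of the set: with CPM over TMM-scaled totals, which reset the library sizes by the bulk of genes, 189 genes met the rule, 91 of them among the 94. The median log2 ratio of all genes was -0.15 by plain CPM and 0.01 by TMM scaling against restricted, and -0.22 and -0.01 against control. The median over the 94 genes was 1.05 plain and 1.21 scaled against restricted.

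The libraries labelled fat pad control were not used by the rule, and 3 of the 4 lay near parenchyma in position. They are set below against the lowest unlimited parenchyma library, a value that the rule did use. The rule required that value to be high in the members and not in the 12620 genes. A larger share of members below it was therefore built in, and nothing is read from these shares. In number 2 (position 0.0306), 90 of the 94 genes were below the lowest unlimited parenchyma library, 95.7%, beside 19.3% of 12620 genes. In number 1 (-0.0329) it was 70 of 94, 74.5%, beside 19.4%, and in number 21 (0.127) 92 of 94, 97.9%, beside 21.0%. In number 18 (0.569) it was 79 of 94, 84.0%, beside 29.8%. Below in both libraries titled PAR were 67 genes (71.3%, beside 7.91%), and adding these 2 libraries to the controls left 67 genes in the set. Number 1 was again the one nearest to the unlimited parenchyma: it was the highest of the 4 in 57 of 91 genes (62.6%, beside 16.1% of all genes), and it had 69.9 CPM of ENSBTAG00000009570 against 1.31 to 4.96 CPM in the 3 others. Whether these libraries are parenchyma is not settled by the labels, and they entered no test.

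In fat pad no difference between the unlimited and restricted diets was detected for any of the 94 genes. The edgeR test could be run on 93, and none was called, as was none of 15203 genes (0%), the lowest adjusted p of a member being 0.541. Unadjusted p was under 0.05 in 13 members (12 higher, 1 lower), 14.0% beside 8.66% of all genes, and DESeq2 called none of the members and 2 of 23233 genes (0.00861%). The median log2 fold change was 0.16 (-0.52 to 2.28), and 68 of 93 were above 0, 73.1% beside 49.9% of all genes. Without unlimited fat pad library 11 the median was 0.05, 59 of 93 were above 0, and 2 had an unadjusted p under 0.05. No member of 90 with a mean of 2 CPM or more had all unlimited libraries above all restricted ones, beside 0.11% of 13613 genes. The rule used the restricted fat pad mean as a floor, so that genes far lower in fat pad were left out, but it used no unlimited fat pad library.

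Library 11 was the highest unlimited fat pad library in 65 of 91 genes, 71.4% beside 20.6% of 13489 genes, and its median of 38.2 CPM over the 94 genes was above the 23.2 to 29.8 CPM of the other 5. It also lay nearest to parenchyma in position among the restricted and unlimited fat pad libraries, at 0.805. The part of position in these values was not tested. The ratio of the fat pad means was 1.5 or more in 7 genes with it and in 2 without it.

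The genes of lowest p in fat pad were not those of the highest ratios. ENSBTAG00000003300 had 86.4, 91.2 and 113 CPM as lowest, median and highest on the unlimited diet and 64.2, 80.3 and 90.3 CPM on the restricted diet, which edgeR put at a log2 fold change of 0.29 ± 0.11 (SE, adjusted p = 0.541). ENSBTAG00000014068 had 88.4, 93.9 and 115 CPM against 74.4, 80.1 and 101 CPM, an edgeR log2 fold change of 0.24 ± 0.09 (adjusted p = 0.541). Both pairs of groups overlapped. On the negative side ENSBTAG00000007415 had an edgeR log2 fold change of -0.41 ± 0.17 (adjusted p = 0.567). ENSBTAG00000034442, with 3.65, 4.34 and 6.48 CPM against 3.48, 6.41 and 8.74 CPM, had -0.43 ± 0.25 (edgeR adjusted p = 0.642).

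**Figure D5:**
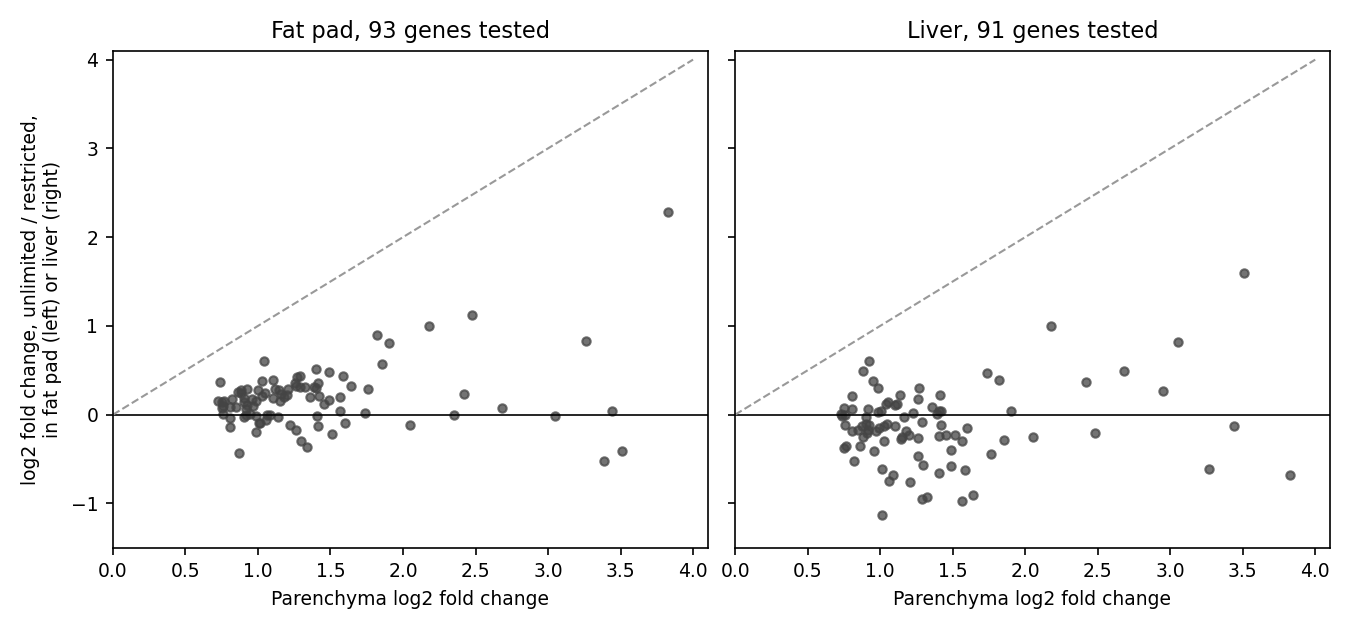
log2 fold change between unlimited and restricted diets in fat pad (left, 93 genes) and liver (right, 91 genes) on the y axis against that in parenchyma on the x axis, 1 point per gene, with the dashed line at equal values. The x axis holds the values the genes were chosen on. Points lie around 0 on the y axis in both tissues, from -0.52 to 2.28 in fat pad and -1.13 to 1.59 in liver.

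Liver was not used by the rule. Many of the genes were expressed there: the restricted liver mean was 10 CPM or more in 71.3% of the 94 genes, beside 62.4% of the 12620 genes, and under 1 CPM in 5 genes, 5.32% beside 7.04%. The restricted liver mean was above the restricted parenchyma mean in 42 of 94 genes, 44.7% beside 24.0%. In 19 genes it was above the unlimited parenchyma mean as well. The rule held the restricted parenchyma mean below the unlimited one in the members and not in the 12620 genes. A larger share of members was thus favoured in advance, and nothing is read from it. The fat pad condition of the rule took out 3 of the 99 genes that met its level, overlap and ratio conditions. The condition was not applied to the 12620 genes. Over all 9 groups the highest mean was that of unlimited parenchyma in 67 genes, of a liver group in 18 and of a fat pad group in 9. By the rule the restricted and control parenchyma groups could not be the highest. The same count was not made over the 12620 genes.

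In liver too no member was called between the unlimited and restricted diets. Of 91 tested members edgeR called none, where 0.0143% of 14030 genes were called, and the lowest adjusted p was 0.0708. Unadjusted p was under 0.05 in 20 members (5 higher, 15 lower on the unlimited diet), and over all 14030 genes it was so in 14.1%. DESeq2 called 4 members and 1.54% of 22021 genes. Without restricted library 8 edgeR called 6 members and 1.67% of 14184 genes. The median log2 fold change was -0.13, and 33 of 91 were above 0, 36.3% beside 53.0% of all genes. By plain CPM the median of the 87 members with a mean of 2 CPM or more was 0.01 beside 0.18 for all genes, and by TMM scaling it was -0.15 beside -0.01. The scaling thus moved the sign of the members' median, while it lay below that of all genes under both. Assigned share was 36.5 ± 4.22% on the restricted and 30.9 ± 4.94% on the unlimited diet (n = 6 each), and with it as a covariate the median was -0.02 and no member was called, as was no gene.

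The gene of lowest p in liver, ENSBTAG00000020632, had 4.92, 5.44 and 6.79 CPM as lowest, median and highest on the unlimited diet and 6.67, 10.5 and 15.3 CPM on the restricted diet. The groups overlapped only between 6.67 and 6.79 CPM, and the edgeR log2 fold change was -1.13 ± 0.21 (SE, adjusted p = 0.0708). Over the alternatives run its adjusted p lay between 0.00036 (DESeq2) and 0.967 (with assigned share). ENSBTAG00000019300, at 14.1, 19.2 and 24.6 CPM against 18.6, 31.2 and 35.5 CPM, had an edgeR log2 fold change of -0.75 ± 0.20 (adjusted p = 0.135). In parenchyma both genes stood higher on the unlimited diet, ENSBTAG00000020632 at 11.7 to 29.8 CPM against 5.57 to 11.5 CPM restricted, and ENSBTAG00000019300 at 23.1 to 36.1 CPM against 10.6 to 18.0 CPM.

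On the positive side ENSBTAG00000007415 had 0.987, 2.91 and 4.95 CPM on the unlimited and 0.362, 0.834 and 1.49 CPM on the restricted diet, with overlap. In edgeR its log2 fold change was 1.59 ± 0.42 (adjusted p = 0.135). ENSBTAG00000012849, an abundant gene with 7446 to 10306 CPM in unlimited parenchyma, had 528, 628 and 839 CPM in unlimited and 253, 373 and 652 CPM in restricted liver, an edgeR log2 fold change of 0.60 ± 0.19 (adjusted p = 0.188). Its highest restricted liver library was number 8, and the other 5 were at 399 CPM or less, under every unlimited library. Unlimited libraries were above all restricted ones in 2 of 87 members, 2.30% beside 0.902% of 12524 genes, and these were ENSBTAG00000011932 (78.7 to 134 CPM against 55.0 to 70.9 CPM) and ENSBTAG00000011478 (5.99 to 9.45 CPM against 3.39 to 5.73 CPM), named after their values were seen.

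Against the control diet the liver gave no called member by edgeR in either comparison. For unlimited against control, 7 of 91 members had an unadjusted p under 0.05 (6 higher, 1 lower), 7.69% beside 9.98% of all genes. Of 14114 genes 0.482% were called, DESeq2 called 2 members beside 1.29% of 21794 genes, and the members' median log2 fold change was 0.05. For restricted against control, 23 of 92 had an unadjusted p under 0.05 (20 higher, 3 lower), 25% beside 13.4% of all genes. Here 0.85% of 14238 genes were called, DESeq2 called 3 members beside 2.45% of 21700 genes, and the members' median was 0.16. The liver comparisons share groups pairwise. Assigned share was 28.5 ± 5.28% in control liver (n = 4), below the restricted liver, and with it as a covariate no member was called between restricted and control, as was no gene, and 2 were between unlimited and control, beside 0.354% of all genes.

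The pair of lowest p for unlimited against control liver was ENSBTAG00000043560 and ENSBTAG00000043584. ENSBTAG00000043560 had 1544, 2255 and 3207 CPM as lowest, median and highest on the unlimited diet and a lowest, median and highest control of 559, 807 and 1738 CPM, an edgeR log2 fold change of 1.16 ± 0.30 (SE, adjusted p = 0.150). ENSBTAG00000043584 had 968, 1676 and 2049 CPM against 370, 537 and 1283 CPM, with 1.17 ± 0.33 (edgeR adjusted p = 0.199). In both genes a single control library reached the unlimited range. The lower ones were ENSBTAG00000015195, at 38.9 ± 8.33 CPM (unlimited, n = 6) against 57.6 ± 15.8 CPM (n = 4), with an edgeR log2 fold change of -0.73 (adjusted p = 0.325), and ENSBTAG00000022920, with -0.60 (edgeR adjusted p = 0.554). ENSBTAG00000022920 stood at 321 ± 80.5 CPM in unlimited liver and at 4.16 to 5.94 CPM in unlimited parenchyma, so its parenchyma levels, unlimited included, lay far below its liver level.

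For restricted against control liver, ENSBTAG00000025496 had 213, 302 and 361 CPM as lowest, median and highest on the restricted diet and 173 to 214 CPM in the controls, an edgeR log2 fold change of 0.72 ± 0.20 (SE, adjusted p = 0.113). In unlimited liver it was at 199 ± 59.8 CPM (n = 6), near the control mean of 190 ± 17.3 CPM (n = 4). ENSBTAG00000021934 had 58.9, 92.6 and 139 CPM on the restricted diet against 35.6 to 66.4 CPM in controls, with 1.09 ± 0.32 (edgeR adjusted p = 0.150). These 2 genes had their highest liver levels on the restricted diet and their highest parenchyma levels on the unlimited diet. ENSBTAG00000002680 had an edgeR log2 fold change of -0.92 (adjusted p = 0.328) and ENSBTAG00000015107 of -0.69 (edgeR adjusted p = 0.332), the latter at 34.7 to 88.5 CPM against 74.8 to 134 CPM.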

How the data were processed

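Ribosomal RNA was removed from total RNA and libraries were sequenced from both ends in 1 pool, per the labels' protocols. The authors deposited read counts per gene with 5 summary entries, which stayed out of library sizes and tests. STAR 2.7.8, HTSeq 1.99.2, FastQC, DESeq2 and the build ARS-UCD1.2 are named, per the submitters' processing notes. The sources used here do not give the strand and multi-read settings, and overlapping, antisense and near-identical genes are thus uncertain. Of 48 samples, 47 were used, and parenchyma control number 2 was not analysed here. Groups follow the tissue and diet labels. The labels do not say that libraries are separate calves, and p-values then reflect the spread between these samples only, which may be technical.

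CPM divided deposited counts by the sum over genes. Each comparison used its 2 groups in edgeR 4.0.16 (R 4.3.3) with filterByExpr (minimum count 10, minimum total 15), TMM, robust quasi-likelihood fits and Benjamini-Hochberg adjustment over all tested genes, called under 0.05. The test was first tested on simulated data. Alternatives were DESeq2 1.42.0, its size factors, no filter, the assigned share as a covariate and leaving out each library. Position used log2(CPM + 1) of mammary genes with a mean of at least 1 CPM, with each library kept out of its own reference means.

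The members and lists were chosen with earlier results of these data known. Without gene names, the gene lists and marker checks could not be run. Genes named are the 2 of highest ratio and, per comparison, at most 2 of lowest p in each direction, with exceptions said to be chosen after their values were seen.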

Additional observations from a re-analysis of the deposited data

Results flagged for a closer look

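Single libraries stood far from the rest of their group in 21 of 168 groups of levels of the named genes and in 3 of 37 groups of library measures. The cut-off, on the gap to the next library as a share of the range, flags about 1 in 20 groups of independent, normally distributed values. Levels in CPM need not be so distributed and the groups share libraries, so the number expected here is not known. Fat pad unlimited library 11 was the outlying library 6 times, high each time, with 88.8 CPM of ENSBTAG00000009570, 364 CPM of ENSBTAG00000004079, 85.6 CPM of ENSBTAG00000005681, 113 CPM of ENSBTAG00000003300, 24.5 CPM of ENSBTAG00000021934 and 145 CPM of ENSBTAG00000015107. Its summed level of the set without the most abundant gene was 13749 CPM, also apart from the 5 others. Parenchyma restricted library 10 was apart, high, with 29.2 CPM of ENSBTAG00000009570, 745 CPM of ENSBTAG00000004079, 10.9 CPM of ENSBTAG00000034442 and 82.5 CPM of ENSBTAG00000015195.

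Parenchyma unlimited library 11 stood apart with 307 CPM of ENSBTAG00000009570 and 450 CPM of ENSBTAG00000015107, and unlimited library 15 with 1614 CPM of ENSBTAG00000004079 and 29.8 CPM of ENSBTAG00000020632. Fat pad control library 1 had 69.9 CPM of ENSBTAG00000009570 and 23.0 CPM of ENSBTAG00000000793, and fat pad control library 18 had 368 CPM of ENSBTAG00000004079. In liver, control library 21 was low in ENSBTAG00000000793 at 1.23 CPM, unlimited library 6 was high in it at 6.88 CPM, and restricted library 8 had 652 CPM of ENSBTAG00000012849. Parenchyma restricted library 5 was low in ENSBTAG00000043584 at 713 CPM and had the highest depth of its group at 17.2 M counts. Liver control library 18 had 8072 CPM summed over the set without its most abundant gene, above the 6137 to 6337 CPM of the other controls.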

How the results depend on the processing

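No paired analysis was possible because the groups compared within a tissue share no replicate numbers. The set of 94 genes was 189 with TMM-scaled CPM, 307 without unlimited 3 and restricted 10 together (added after seeing the data), and 91 to 185 without 1 parenchyma library. Members called in parenchyma became 0 against restricted and 0 against control with position as a covariate (added after seeing the data). Without 1 library they were 94 to 94 and 72 to 90 respectively, the lowest without control 18. For restricted against control parenchyma DESeq2 called 5, assigned share 2, and fits without 1 library 0 to 4.

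In liver, members called between unlimited and restricted were 4 by DESeq2 (ENSBTAG00000007415, ENSBTAG00000019300, ENSBTAG00000020632 and ENSBTAG00000021934), 1 with no filter (ENSBTAG00000020632), and 0 to 6 without 1 library, 6 without restricted 8. Between unlimited and control they were 2 by DESeq2, 2 with assigned share and 0 to 2 without 1 library, each time ENSBTAG00000043560 and ENSBTAG00000043584. Between restricted and control they were 3 by DESeq2 and 0 to 2 without 1 library. In fat pad they were 0 in all 16 alternatives. Among 354 alternative values of 24 results for single genes, 327 kept their direction and side of the threshold, 23 passed it only in the alternative, 4 no longer passed it, all with position, and 0 reversed. The cause of these changes was not tested. In simulated data of each comparison, with the same assumed spread for every gene, most changes of 1.5-fold were missed. That spread was not taken from the fat pad or liver libraries, so the simulation does not give what these libraries detect. Small differences in fat pad and liver may have been missed.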
